A study of Mus musculus with 6 samples.

Results

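The TNF receptor superfamily costimulators examined here are 10 genes, Tnfrsf4, Tnfrsf9, Tnfrsf18, Tnfrsf1a, Tnfrsf1b, Tnfrsf25, Tnfrsf26, Cd27, Fas and Tnfrsf8, each taken by its symbol from the 13709 gene rows of the count table. All 10 were present and passed the low-count filter. RNA-Seq had been done on CD4+CD25+YFP+ Tregs sorted from 3 WT samples (Foxp3Cre, on C57BL/6) and 3 KO samples (Foxp3Cre Zfp335fl/fl, on C57BL/6), from mice that were 2 weeks old per the study's methods. In both genotypes the Foxp3 locus drives a fusion of YFP and Cre, so WT cells carry the Cre as well, and in KO mice the floxed Zfp335 gene, which encodes a zinc finger transcription factor, is deleted in cells that have turned on Foxp3. The labels disagree on whether the cells came from spleen or lymph nodes and do not say how many mice made up a sample, so p-values measure the spread between these samples, which may be partly technical.

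Receptors of this superfamily are single-pass membrane proteins that bind trimeric ligands on neighboring cells or in solution. Most recruit TRAF adaptors and switch on the canonical and noncanonical NF-kappaB pathways, and those with a death domain can instead assemble complexes that activate caspases. Tregs are known for displaying several of them at high levels, where OX40, GITR, 4-1BB and TNFR2 act as costimulators of their expansion and survival.

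The samples held 32032631 to 40728419 counts. Zfp335 itself was at 101, 94.3 and 103 CPM (counts per 1000000 of the TMM-scaled library total) in WT replicates 1 to 3 and at 37.0, 37.9 and 40.2 CPM in KO, so its transcripts were lower in each KO sample but still counted. WT replicate 3 stood apart from the other WT samples, at -54.5 on a second principal component holding 18.1% of the variance, where WT replicates 1 and 2 were at 21.9 and 31.2. The defining Treg gene Foxp3 was at 738, 642 and 1189.8 CPM in WT and 460, 472 and 463 CPM in KO, the former highest in WT replicate 3. The summed level of 7 Treg markers was 4343 to 5627 CPM in WT and 3650 to 3750 CPM in KO. Summed markers of cell cycling were 394 to 910 CPM in WT, lowest in WT replicate 3, and 2637 to 2774 CPM in KO. Those of macrophages, monocytes and dendritic cells, of which 5 of 6 were analysed, were 8.62 to 20.5 CPM in WT. In KO they were 44.4 to 48.5 CPM. Of 4 neutrophil markers, Ly6g and Retnlg were not in the count table. S100a8 and S100a9 were at 0 in every WT sample, where 3 counts would be at most 0.0913 CPM. They summed to 3.57 to 5.42 CPM in KO. The study's single-cell data from younger mice had both genes high in a Treg subset it calls dysfunctional. NK cell markers summed to 3.59 to 5.83 CPM in WT and 14.9 to 16.2 CPM in KO. Of the 3 summed, Eomes was the highest, at 2.31 (WT) and 11.3 CPM (KO). Klrb1c was at 1.65 and 3.48 CPM, and Ncr1, at 0.384 and 0.940 CPM, was not called. The summed CD8 T cell, B cell and erythroid markers overlapped between genotypes. For the erythroid markers this rested on WT replicate 3, with 53.8, 63.2 and 15.5 CPM in WT and 27.3 to 30.0 CPM in KO. Without WT replicate 3, Hba-a1 (-1.31) and Hbb-bs (-0.96) were called lower in KO and Alas2 was not called. Of the CD8 T cell markers, Cd8b1 overlapped and Cd8a was called higher in KO, at 2.31, 1.005 and 2.25 CPM in WT and 4.11, 2.86 and 4.17 CPM in KO (log2 fold change 0.997, edgeR adjusted p = 0.0665, and 1.15 without WT replicate 3). The part of these differences in the results below was not tested.

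In KO Tregs 3 of the 10 receptors fell, Tnfrsf1b, Cd27 and Tnfrsf25, and none rose by edgeR or DESeq2, with 1 higher at an unadjusted p under 0.05 in edgeR. Calls here required 3 things of edgeR's quasi-likelihood test of KO against WT, namely a fold over 1.5, an unadjusted p below 0.05 and an adjusted p below 0.1. By this rule 30% of the receptors were called, beside 24.4% of the 13594 genes tested in either direction and 12.5% called lower. The KO and WT values did not overlap for 6 receptors, beside 53.8% of all genes. In 4 of them every KO value was below WT (27.6% of all genes) and in 2 every KO value was above WT (26.2%). An adjusted p below 0.1 at any fold was met by 5 of the 10, beside 47.0% of all genes. The median log2 fold change of the 10 was -0.10, beside -0.04 over all genes tested. In bulk samples such as these, fewer cells of a type and less RNA per cell cannot be told apart.

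**Figure D1:**
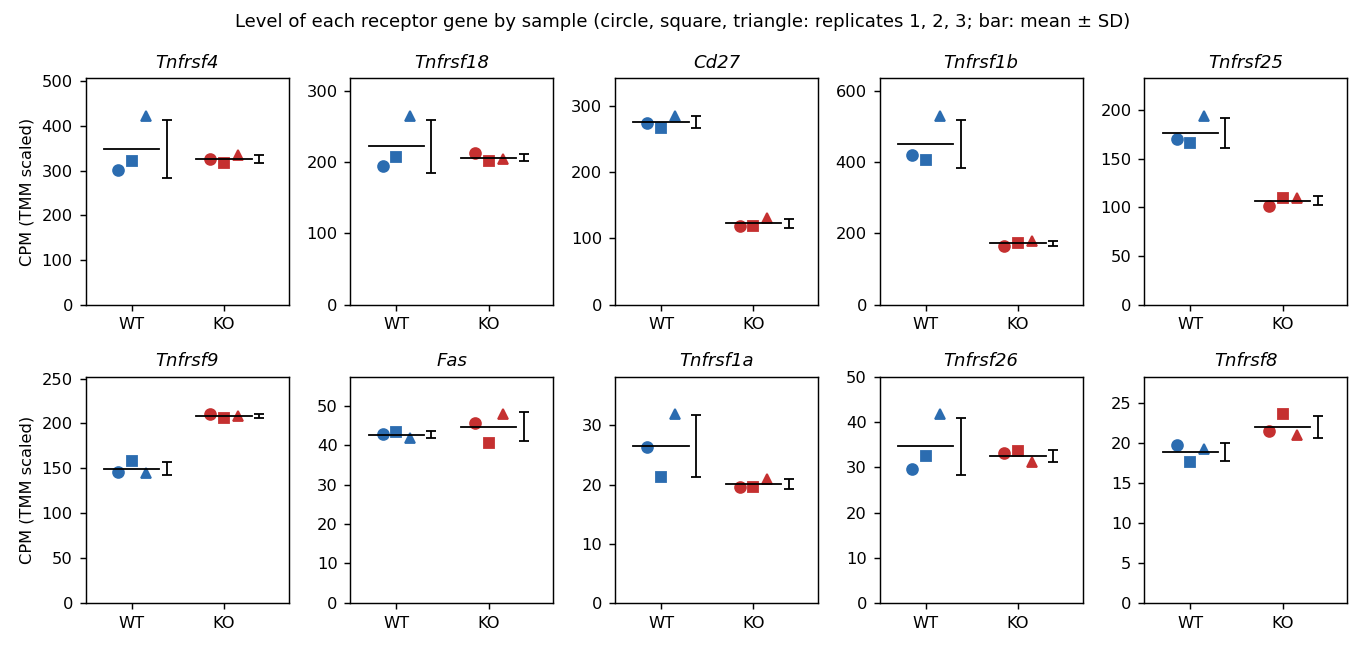
Level of each receptor gene in CPM on a linear axis from 0 for the 3 WT (blue) and 3 KO (red) samples, with circle, square and triangle for replicates 1, 2 and 3, a line at the mean and a bar for the SD. Tnfrsf1b, Cd27, Tnfrsf25 and Tnfrsf1a are lower in all 3 KO samples than in any WT sample, Tnfrsf9 and Tnfrsf8 are higher, and in 7 of the 10 panels WT replicate 3 (blue triangle) is the highest of the 6 samples.

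The genes lie on 4 chromosomes, and 6 of them are on chromosome 4 (GENCODE M21 on GRCm38, the assembly mm10 denotes). Upstream sequence is shown for the 3 receptors that fell and for Tnfrsf9, whose KO values were all above WT. Each run holds 250 bases ending just before a RefSeq start on GRCm38.p6, written on the strand of the gene. The windows are chr4:145246871-145247120 on the minus strand for Tnfrsf1b, chr6:125237028-125237277 on the minus strand for Cd27, chr4:152115684-152115933 and chr4:152116093-152116342 on the plus strand for Tnfrsf25, and chr4:150919905-150920154 and chr4:150927749-150927998 on the plus strand for Tnfrsf9. Tnfrsf25 and Tnfrsf9 each have 2 starts in the RefSeq table, and both windows are shown. Capitals mark matches, on either strand, to the motifs searched.
Tnfrsf1b: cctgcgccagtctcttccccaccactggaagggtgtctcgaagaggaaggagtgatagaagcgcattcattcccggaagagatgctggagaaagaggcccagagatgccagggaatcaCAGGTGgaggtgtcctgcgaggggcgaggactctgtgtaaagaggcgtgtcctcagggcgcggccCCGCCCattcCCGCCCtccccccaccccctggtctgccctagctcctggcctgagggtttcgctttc
Cd27: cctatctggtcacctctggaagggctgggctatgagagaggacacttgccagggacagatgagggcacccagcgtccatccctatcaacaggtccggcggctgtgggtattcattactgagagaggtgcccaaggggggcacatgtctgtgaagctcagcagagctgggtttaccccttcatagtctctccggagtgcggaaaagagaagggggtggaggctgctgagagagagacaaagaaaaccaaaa
Tnfrsf25, first start: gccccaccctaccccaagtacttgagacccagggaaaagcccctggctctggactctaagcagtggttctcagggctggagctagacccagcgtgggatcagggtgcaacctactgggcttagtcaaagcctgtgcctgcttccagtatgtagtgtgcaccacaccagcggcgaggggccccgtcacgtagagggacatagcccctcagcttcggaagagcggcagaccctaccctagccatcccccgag
Tnfrsf25, second start: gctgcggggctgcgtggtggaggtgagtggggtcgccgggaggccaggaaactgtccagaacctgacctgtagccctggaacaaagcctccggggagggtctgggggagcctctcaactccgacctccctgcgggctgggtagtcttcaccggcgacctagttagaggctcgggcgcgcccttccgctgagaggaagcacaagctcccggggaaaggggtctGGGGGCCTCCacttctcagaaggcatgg
Tnfrsf9, first start: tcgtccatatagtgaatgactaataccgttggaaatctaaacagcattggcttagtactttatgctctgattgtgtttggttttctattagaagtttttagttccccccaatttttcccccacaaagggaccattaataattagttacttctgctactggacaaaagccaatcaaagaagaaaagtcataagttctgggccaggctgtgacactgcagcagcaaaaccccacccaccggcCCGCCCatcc
Tnfrsf9, second start: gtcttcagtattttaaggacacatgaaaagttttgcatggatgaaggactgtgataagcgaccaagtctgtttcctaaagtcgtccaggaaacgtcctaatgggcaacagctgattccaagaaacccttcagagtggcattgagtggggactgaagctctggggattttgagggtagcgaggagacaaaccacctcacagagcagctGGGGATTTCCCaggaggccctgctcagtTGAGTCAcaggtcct

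The motifs searched were AP-1 (TGANTCA), Runx (TGTGGTT), forkhead (GTAAACA), an E-box (CAGGTG), a GC box (GGGCGG), Ets (CCGGAAGT) and the NF-kappaB site. The Tnfrsf1b window held an E-box 132 bases upstream of the start and 2 GC boxes 67 and 57 bases upstream. An E-box was present in 16.0% and a GC box in 54.5% of the 13477 windows of the same length from 10653 genes tested. The Cd27 window and the first Tnfrsf25 window held none of the 7 motifs, and the second Tnfrsf25 window held an NF-kappaB match 28 bases upstream. The first Tnfrsf9 window held a GC box 10 bases upstream and no other match. The second Tnfrsf9 window held overlapping NF-kappaB matches 42 and 43 bases upstream and an AP-1 match 15 bases upstream, motifs found in 8.75% and 4.55% of all windows. These matches share no motif across the 3 receptors that fell, and they describe letters only, not binding.

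Of the receptors that signal through TRAF adaptors without a death domain, Tnfrsf1b encodes TNFR2, the TNF receptor that Tregs display most, and spans chr4:145213463-145246870 on the minus strand. Tnfrsf1b was at 420.1, 406 and 529 CPM in WT replicates 1 to 3 and at 165, 172 and 179 CPM in KO replicates 1 to 3. The genotypes did not overlap, the KO samples being the lower, and WT replicate 3 was the highest of the 6. The KO mean of 172 ± 7.07 CPM was 38.1% of the WT mean of 452 ± 67.4 CPM (SD, n = 3 each), with a log2 fold change of -1.39 ± 0.11 (SE, edgeR adjusted p = 0.000108). Without WT replicate 3 the log2 fold change was -1.27 (edgeR adjusted p = 1.28e-10).

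Cd27, a receptor for CD70 that supports T cell survival, was at 276, 267 and 285 CPM in WT and at 119.6, 119 and 131 CPM in KO. The genotypes were far apart, and WT replicate 3 was close to the other WT samples. Its KO mean of 123 ± 6.78 CPM was 44.6% of the WT mean of 276 ± 9.15 CPM (n = 3 each), at a log2 fold change of -1.16 ± 0.07 (SE, edgeR adjusted p = 3.33e-05). It was -1.14 without WT replicate 3. The gene spans chr6:125232622-125237010 on the minus strand and shares 129 exonic bases with the microRNA gene Mir8113 on the same strand.

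Tnfrsf4 and Tnfrsf18 encode OX40 and GITR, costimulators that Tregs carry constitutively, and lie 9551 bases apart on the plus strand, at chr4:156013843-156016612 and chr4:156026164-156028895. Tnfrsf4 was at 302, 320.3 and 422 CPM in WT and at 326, 317 and 335 CPM in KO. Tnfrsf18 was at 194, 208 and 265 CPM in WT and at 213, 202 and 205 CPM in KO. Both had their highest value in WT replicate 3, and in both the KO values lay among or above those of WT replicates 1 and 2. The log2 fold change of Tnfrsf4 was -0.09 (95% interval -0.38 to 0.19, edgeR adjusted p = 0.593) and that of Tnfrsf18 was -0.11 (-0.37 to 0.16, edgeR adjusted p = 0.512). Without WT replicate 3 both turned to positive values, 0.06 (interval -0.05 to 0.18) and 0.04 (-0.09 to 0.16). With all samples the intervals thus do not reach a fold of 1.5 in either direction. Tnfrsf18 is uncertain if strand was not used in counting, since it shares 414 exonic bases, 27.2% of its exons, with the antisense gene Gm16008. Tnfrsf4 overlaps Sdf4 by 16 bases in RefSeq but lies 232 bases from it in GENCODE M21. Any overlap in its counts thus depends on the annotation used, which is not known.

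Tnfrsf9 encodes 4-1BB, a receptor induced by T cell activation, from chr4:150914562-150946102 on the plus strand. It was at 146, 158 and 144 CPM in WT and at 210.0, 206 and 208 CPM in KO. All 3 KO samples were above all WT samples, and the KO samples differed among themselves by less than the WT samples. The KO mean of 208 ± 1.89 CPM was 139% of the WT mean of 149 ± 7.49 CPM (n = 3 each). The log2 fold change of 0.48 ± 0.06 (SE, 95% interval 0.33 to 0.63) had an edgeR adjusted p of 0.00106, but its fold was under 1.5, so it was not called. It was 0.45 without WT replicate 3.

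Tnfrsf8 encodes CD30, the receptor of CD30L, and was at a low level of 19.7, 17.6 and 19.2 CPM in WT and 21.5, 23.5 and 20.9 CPM in KO. The KO values were above the WT values by a small margin. The log2 fold change was 0.22 (95% interval -0.01 to 0.45, edgeR adjusted p = 0.119), and 0.23 without WT replicate 3 (edgeR adjusted p = 0.0859). Tnfrsf8 is the next gene to Tnfrsf1b, 20266 bases away on the same strand, at chr4:145267137-145315164.

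Among the receptors with a death domain, Tnfrsf25 encodes DR3, the receptor of TL1A and a costimulator of Tregs, from chr4:152115934-152120119 on the plus strand. Tnfrsf25 was at 170.2, 166 and 194 CPM in WT and at 101, 110.0 and 109 CPM in KO. The genotypes did not overlap, and WT replicate 3 was the highest. The KO mean of 107 ± 4.75 CPM was 60.5% of the WT mean of 177 ± 15.1 CPM (n = 3 each), at a log2 fold change of -0.73 ± 0.08 (SE, edgeR adjusted p = 0.000484). Without WT replicate 3 it was -0.66. Tested against a fold of 1.5 rather than against no change (edgeR's glmTreat), Tnfrsf25 was no longer called (adjusted p = 0.1285), while Tnfrsf1b and Cd27 were.

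Tnfrsf1a encodes TNFR1, the death domain receptor for TNF found on most cells, and lies 112351 bases from Cd27 at chr6:125349362-125362484 on the plus strand. It was at 26.4, 21.3 and 31.8 CPM in WT and at 19.5, 19.5 and 21.0 CPM in KO. The WT samples were spread widely, with WT replicate 2 close to the KO samples. The log2 fold change of -0.40 ± 0.15 (SE, 95% interval -0.75 to -0.06, edgeR adjusted p = 0.0635) did not reach a fold of 1.5, and leaving out WT replicate 3 gave -0.26 (edgeR adjusted p = 0.0656).

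Fas, the death receptor for Fas ligand at chr19:34290666-34327772 on the plus strand, was at 42.9, 43.3 and 41.8 CPM in WT and at 45.5, 40.5 and 47.8 CPM in KO. The ranges overlapped, and the KO samples were the more spread. Its log2 fold change was 0.06 (95% interval -0.13 to 0.26, edgeR adjusted p = 0.586), and 0.05 without WT replicate 3. Tnfrsf26, a receptor of the mouse encoded beside the TRAIL decoy receptors at chr7:143607659-143628722 on the minus strand, was at 29.7, 32.6 and 41.7 CPM in WT and 33.2, 33.6 and 31.1 CPM in KO. WT replicate 3 was again the highest. Its log2 fold change was -0.09 (95% interval -0.39 to 0.22, edgeR adjusted p = 0.638). Leaving out WT replicate 3 turned it to 0.06. Tnfrsf26 shares 107 exonic bases with the antisense gene E230032D23Rik.

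**Figure D2:**
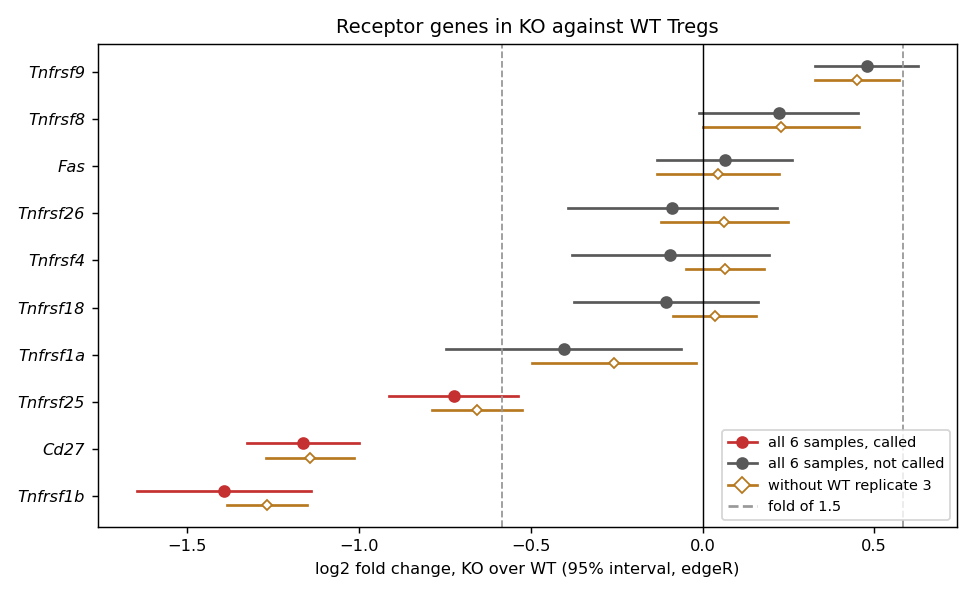
Log2 fold change of each receptor gene, KO over WT, with its 95% interval from edgeR, for all 6 samples (circles, red where called) and without WT replicate 3 (open diamonds); dashed lines mark a fold of 1.5. The estimates for Tnfrsf1b, Cd27 and Tnfrsf25 lie below the lower line in both fits, and Tnfrsf4, Tnfrsf18 and Tnfrsf26 cross 0 when WT replicate 3 is left out.

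WT replicate 3 held more RNA of some receptors than the other WT samples did, which bears on each value above. It was the highest of the 6 samples for 7 of the 10, all but Tnfrsf9, Fas and Tnfrsf8, beside 25.3% of all genes. Relative to the mean of WT replicates 1 and 2, its level was 0.44 higher on the log2 scale for Tnfrsf4, 0.42 for Tnfrsf26 and Tnfrsf1a, 0.40 for Tnfrsf18, 0.36 for Tnfrsf1b and 0.21 for Tnfrsf25. For Cd27, Tnfrsf8, Fas and Tnfrsf9 it was 0.07, 0.04, -0.05 and -0.08. Over all genes tested the 25th to 75th percentiles were -0.26 and 0.24, so 5 receptors were above this range and none below it. The NF-kappaB inhibitor genes Tnfaip3 and Nfkbia were 2.33 and 1.24 higher in WT replicate 3. Other inhibitors differed less, with Cyld at 0.36, Otulin at 0.12, Tnip1 at 0.10, Nfkbie at 0.04 and Nfkbib at -0.05. The median of the 7 inhibitors was 0.12. The part of NF-kappaB signaling in the receptor levels of this sample was not tested.

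**Figure D3:**
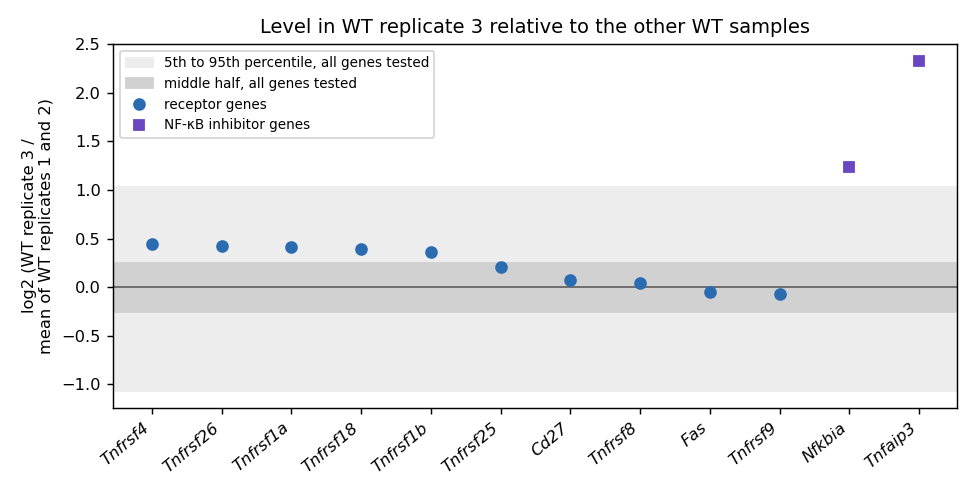
Log2 ratio of the level in WT replicate 3 to the mean of WT replicates 1 and 2 for the 10 receptor genes (circles) and Nfkbia and Tnfaip3 (squares), with gray bands for all genes tested, the dark one from the 25th to the 75th percentile. Tnfrsf4, Tnfrsf26, Tnfrsf1a, Tnfrsf18 and Tnfrsf1b lie above the dark band, and Tnfaip3 at 2.33 lies above the 95th percentile of 1.03.

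To compare levels between genes, CPM was divided by the length in kb of the longest coding transcript. In WT, Tnfrsf4 stood highest at 338 ± 62.9 CPM per kb (SD, n = 3), then came Tnfrsf18 at 187 ± 31.5 and Cd27 at 177 ± 5.87, whose ranges overlapped. Tnfrsf1b at 118 ± 17.6 and Tnfrsf25 at 106 ± 9.09 CPM per kb also overlapped. Tnfrsf9 at 70.7 ± 3.54 and Fas at 28.8 ± 0.545 CPM per kb followed, each apart from its neighbors in the order. Tnfrsf1a at 12.3 and Tnfrsf26 at 11.2 CPM per kb overlapped, and Tnfrsf8 was lowest at 5.52.

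In KO no neighbors in the order overlapped, and the order differed below the top pair. Tnfrsf4 at 317 and Tnfrsf18 at 174 CPM per kb led, and Tnfrsf9 came next at 98.5, above Cd27 at 79.0, Tnfrsf25 at 64.4 and Tnfrsf1b at 45.03. Of the summed level per kb of all 10 receptors, Tnfrsf1b made up 11.2% ± 0.433 in WT and 5.40% ± 0.196 in KO, and Cd27 16.9% ± 1.52 and 9.47% ± 0.351. The share of Tnfrsf9 was 6.77% ± 0.967 in WT and 11.8% ± 0.202 in KO. The place of Cd27 depends on its length. With the median coding transcript it was second in WT, at 332 CPM per kb, and below Tnfrsf18 in KO at 148, above Tnfrsf9 at 104.

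**Figure D4:**
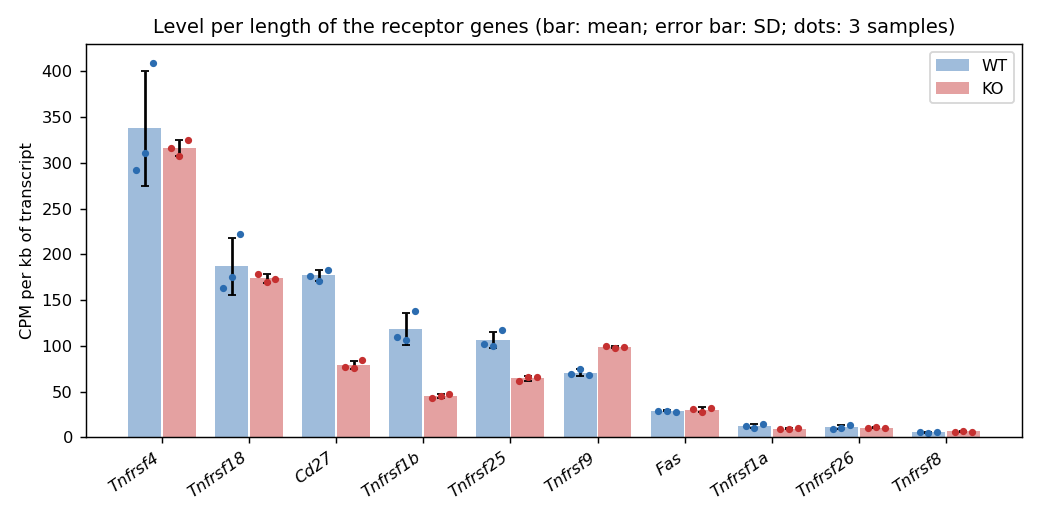
Level per length in CPM per kb of the longest coding transcript for the 10 receptor genes, with bars for the mean of 3 samples, error bars for the SD and dots for the samples, WT in blue and KO in red. Tnfrsf4 is highest and Tnfrsf8 lowest in both genotypes, and Tnfrsf1b, Cd27 and Tnfrsf25 are lower and Tnfrsf9 higher in KO.

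Ratios between transcripts of the same sample do not depend on the library total. These were chosen after their values were seen and are in CPM uncorrected for length, so only their change between genotypes can be read. Tnfrsf4 over Tnfrsf18 was 1.55, 1.54 and 1.59 in WT and 1.53, 1.57 and 1.63 in KO, overlapping ranges that also held WT replicate 3. Tnfrsf1b over Tnfrsf1a, the 2 receptors of TNF, was 15.9, 19.1 and 16.6 in WT and 8.42, 8.82 and 8.52 in KO. Tnfrsf9 over Cd27 was 0.530, 0.592 and 0.506 in WT and 1.76, 1.73 and 1.59 in KO. Both of the latter ratios were separated between genotypes, with WT replicate 3 within or near the range of the other WT samples.

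Of the ligands of the 10 receptors, 8 of 9 were analysed, and 5 rose, beside 11.9% of all genes called higher. None fell by edgeR or DESeq2, and 2 were lower at an unadjusted p under 0.05 in edgeR. Over all genes, 47.0% met an adjusted p below 0.1 at any fold in either direction, a cutoff close to that unadjusted p in these data. Tnfsf8, which encodes CD30L, was at 49.5, 52.2 and 50.3 CPM in WT and at 108, 103 and 100.4 CPM in KO (log2 fold change 1.03 ± 0.07, edgeR adjusted p = 4.16e-05). Fasl, the ligand of Fas, was at 4.32, 3.62 and 2.61 CPM in WT and at 12.7, 13.5 and 13.4 CPM in KO (1.90 ± 0.20, edgeR adjusted p = 0.000376). Tnfsf9, which encodes the ligand of 4-1BB, was at 3.26, 2.13 and 3.36 CPM in WT and at 6.79, 7.44 and 5.81 CPM in KO (1.19 ± 0.24, edgeR adjusted p = 0.00612). None of these 3 overlapped between genotypes. Fasl over Fas was 0.0823 ± 0.0191 in WT and 0.297 ± 0.0316 in KO, and Tnfsf8 over Tnfrsf8 was 2.70 ± 0.232 and 4.74 ± 0.330 (SD, n = 3, in CPM).

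The other ligand genes that rose, Tnfsf4 and Cd70, encode the partners of OX40 and CD27 and are named after their values were seen. They were near the limit of detection in WT and low in KO. Tnfsf4 was at 0.272, 0.0913 and 0.481 CPM in WT, where WT replicate 2 held 3 counts, and at 1.31, 1.72 and 1.90 CPM in KO. The log2 fold change of Tnfsf4 was 2.53 (edgeR adjusted p = 0.0106). Tnfsf4 kept its call by glmTreat (adjusted p = 0.0389) and with any 1 sample left out. Cd70 was at 0.489, 0.457 and 0.270 CPM in WT and at 0.794, 2.12 and 0.794 CPM in KO, the highest value coming from KO replicate 2. Its log2 fold change of 1.60 (edgeR adjusted p = 0.0541) was 0.96 without KO replicate 2 (edgeR adjusted p = 0.239) and then was not called, nor was it by glmTreat. These ligands are also made by antigen-presenting cells. Of 5 markers of macrophages, monocytes and dendritic cells, 4 were called higher in KO, beside 11.9% of all genes, namely Itgax, Csf1r, Itgam and Lyz2. Lyz2 was not called without WT replicate 3, and Flt3 was not called with all samples. None of 4 B cell markers was called. The part of such cells was not tested. Tnf, at 48.8 ± 7.96 (WT) and 39.6 ± 1.29 CPM in KO, was not called (-0.30, edgeR adjusted p = 0.0907). Lta was at 81.0 ± 6.51 and 56.8 ± 3.02 CPM, lower in every KO sample (-0.51, edgeR adjusted p = 0.0025). Its fold was under 1.5, so it was not called either.

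Among 13 of 18 other receptors of the superfamily that were analysed, 3 fell and their median log2 fold change was -0.16. Beside these, 24.4% of all genes were called and 12.5% were called lower. None of the 13 rose with all samples in edgeR, also at an unadjusted p under 0.05. However, 1 rose by DESeq2 and 1 in edgeR when each sample had to hold 10 counts. Tnfrsf13b, which encodes TACI, was at 73.4 ± 3.05 (WT) and 37.99 ± 2.12 CPM (KO), with a log2 fold change of -0.95 (edgeR adjusted p = 0.000123). Tnfrsf22, a decoy receptor for TRAIL next to Tnfrsf26, was at 28.2 ± 2.37 and 17.2 ± 0.904 CPM (-0.71, edgeR adjusted p = 0.00138). Its transcripts hold 766 aligned bases at 97.9% identity with another gene, which makes it uncertain, as does the overlap of Tnfrsf13b with Usp22. Tnfrsf14, which encodes HVEM, was at 54.2, 55.4 and 34.7 CPM in WT and at 31.7, 31.3 and 30.3 CPM in KO (-0.63, edgeR adjusted p = 0.0215). Here WT replicate 3 was close to the KO samples, and Tnfrsf14 was not called without WT replicate 1 (-0.53) or WT replicate 2 (-0.52). Without WT replicate 3, 7 of the 13 were called, 3 higher and 4 lower. In that fit 3667 of the 13663 genes tested were called, 1862 higher and 1805 lower.

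Of the other ligands of the superfamily 7 of 9 were analysed, and they went both ways. Called higher were 2 and called lower 3, beside 11.9% and 12.5% of all genes. Cd40lg, the helper T cell ligand of CD40, was at 23.7, 20.7 and 13.9 CPM in WT and at 59.4, 63.4 and 64.8 CPM in KO (log2 fold change 1.69 ± 0.18, edgeR adjusted p = 0.000409). Tnfsf10, which encodes TRAIL, was at 103, 94.4 and 108 CPM in WT and at 57.4, 60.3 and 59.8 CPM in KO (-0.78, edgeR adjusted p = 0.000235). Tnfsf11, which encodes RANKL, was at 34.7 ± 6.65 (WT) and 18.8 ± 1.41 CPM in KO (-0.88, edgeR adjusted p = 0.00308). These 3 genes were apart between genotypes in every sample. Tnfsf14, which encodes LIGHT, was at 26.5, 20.6 and 10.9 CPM in WT and at 10.8, 11.6 and 10.4 CPM in KO (-0.82, edgeR adjusted p = 0.0551), with WT replicate 3 among the KO values. It lost its call without WT replicate 1 (-0.52), WT replicate 2 (-0.78) and any 1 of KO replicates 1, 2 and 3 (-0.81, -0.86 and -0.78). Tnfsf13b, which rose as well, was low, at 1.53 (WT) and 2.93 CPM (KO), and is named after its values were seen.

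**Figure D5:**
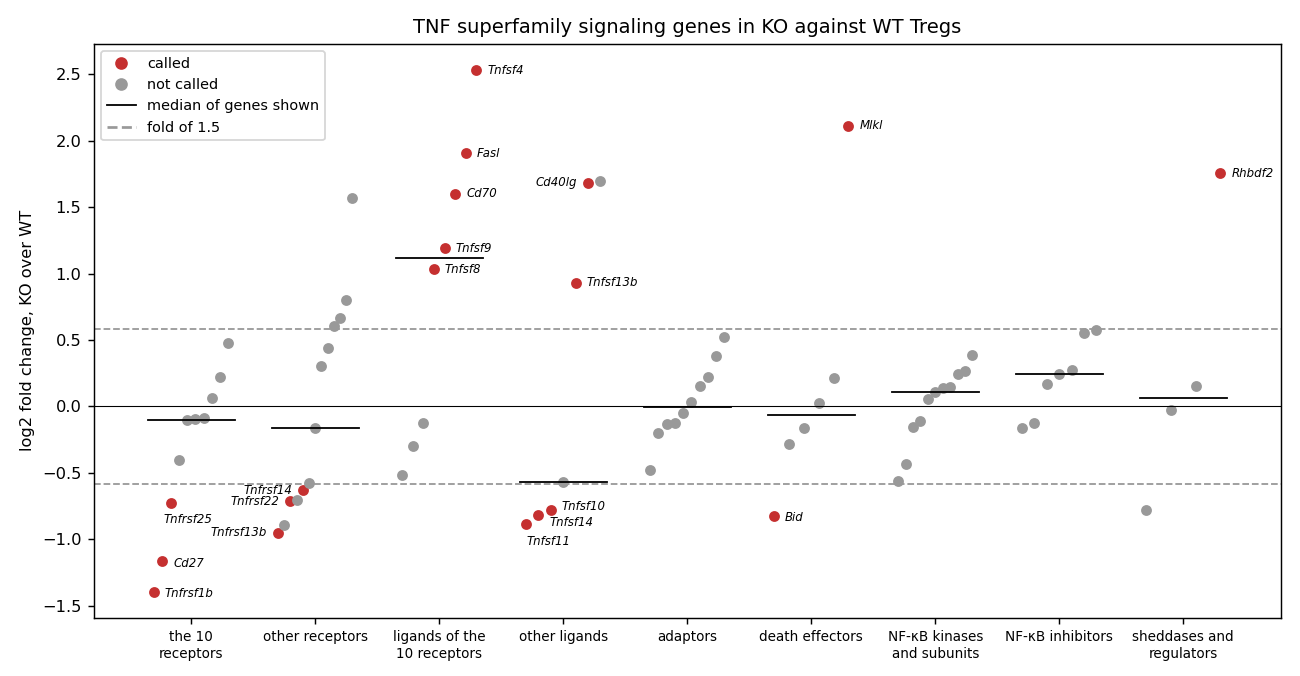
Log2 fold change, KO over WT, of genes tested in 9 lists of the TNF superfamily pathway, with called genes in red and named, other genes in gray, a line at the median of the genes shown in each list and dashed lines at a fold of 1.5. The 5 called ligands of the 10 receptors lie between 1.03 and 2.53, the 3 called receptors between -1.39 and -0.73, and no adaptor and no NF-kappaB gene is called.

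Inside the cell, none of 10 adaptors and ubiquitin ligases at the receptors was called by edgeR, beside 24.4% of all genes. The highest was Birc3, which encodes the ubiquitin ligase cIAP2, at 177 ± 35.6 (WT) and 182 ± 3.84 CPM in KO. The median log2 fold change of the 10 was -0.01. Ripk1, a kinase below TNFR1, was at 69.1 ± 8.82 and 99.4 ± 4.61 CPM (0.53, edgeR adjusted p = 0.00465) and was the single adaptor called without WT replicate 3 (0.63). It was named after its values were seen and overlaps Serpinb6a.

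None of 11 kinases and subunits of NF-kappaB signaling was called either, beside the same 24.4% of all genes. Nfkb1, the highest, was at 518 ± 11.4 (WT) and 614 ± 4.27 CPM (KO), with a log2 fold change of 0.25 (edgeR adjusted p = 0.0135). None of 7 inhibitors of NF-kappaB was called with all samples. Tnfaip3, which encodes A20, was at 299, 262 and 1416 CPM in WT and at 778, 722 and 721 CPM in KO, so the KO values lay between those of WT replicate 3 and the other WT samples. Without WT replicate 3, 3 of the 7 were called higher, Tnfaip3 (1.39), Nfkbia (0.78) and Otulin (0.61), of which the latter pair were named after their values were seen. In that fit 1862 of the 13663 genes tested were called higher. Beside these counts of 0, 3 of the adaptors, 6 of the kinases and subunits and 4 of the inhibitors had an unadjusted p under 0.05 in edgeR. Over all genes, 47.0% met an adjusted p below 0.1 at any fold, a cutoff close to that unadjusted p in these data. An adjusted p below 0.05, whatever the fold, was met by 2 adaptors, 5 kinases and subunits and 3 inhibitors. It was met by 5244 of the 13594 genes tested. DESeq2 called 1 inhibitor and none of the other genes in these 3 lists.

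Among the death effectors below Fas and TNFR1, Mlkl rose and Bid fell. Mlkl, the executor of necroptosis, was at 1.39, 2.25 and 1.95 CPM in WT and at 7.58, 8.69 and 7.91 CPM in KO (log2 fold change 2.11 ± 0.23, edgeR adjusted p = 0.000462). Bid, which links caspase-8 to mitochondria, was at 44.6 ± 2.12 and 25.2 ± 1.83 CPM (-0.82, edgeR adjusted p = 0.000421). Both were separated between genotypes. Of 4 sheddases and regulators 1 was called, beside 24.4% of all genes. This was Rhbdf2, which encodes a partner of the protease that sheds TNF and its receptors. It was at 16.4, 16.8 and 27.0 CPM in WT and at 63.0, 73.2 and 66.7 CPM in KO (1.75 ± 0.19, edgeR adjusted p = 0.000465).

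The receptor genes were also set beside their protein-coding neighbors on the chromosome. Of 16 neighbors that are not among the 10 receptors, 10 were tested and 2 were called, both lower, beside 24.4% of all genes called. These were Espn, 211 bases from Tnfrsf25, at 30.8 (WT) and 16.5 CPM (KO), with a log2 fold change of -0.90 (edgeR adjusted p = 0.000376), and Tnfrsf22, 6083 bases from Tnfrsf26. Next to Tnfrsf1b, neither Vps13d (-0.17) nor Tnfrsf8 (0.22) was called. Tapbpl, 761 bases from Cd27, was at 78.7 (WT) and 105 CPM in KO (0.41, edgeR adjusted p = 0.00156), the opposite direction to Cd27, and was not called.

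The genes whose level followed that of Tnfrsf1b most closely over the 6 samples were Iffo2, Ccr6 and Arhgap27, with Pearson r of log2 CPM of 0.9999, 0.9992 and 0.9983. This likeness is a description, as all 6 samples share the split by genotype. Ccr6, a chemokine receptor, was at 45.5, 46.9 and 64.9 CPM in WT and at 11.9, 12.1 and 13.1 CPM in KO. Iffo2 was at 43.1 ± 4.22 and 22.2 ± 0.718 CPM, and Arhgap27 at 192 ± 12.9 and 119.8 ± 3.98 CPM. Like Tnfrsf1b, all 3 were highest in WT replicate 3 and did not overlap between genotypes.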

How the data were processed

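Bulk RNA-Seq of 6 Treg samples was used. The study's methods name SOAPnuke for filtering the reads, HISAT2 for alignment to mm10 with 1 alignment kept, and StringTie for levels. The authors deposited whole-number counts per gene without normalization. How the counts were made, with which annotation and whether by strand, is not given in the sources used here, so genes that overlap or resemble another are uncertain. The smallest sum of a row was 60, so low genes had been removed before deposition.

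Counts were tested with edgeR 4.0.16 (R 4.3.3; filterByExpr at a minimum count of 10, TMM scaling, quasi-likelihood F-test, two-sided, no covariate). Adjusted p-values are Benjamini-Hochberg values across the 13594 genes tested, and the calling rule used the study's cutoffs. DESeq2 1.42.0 and other settings were alternatives. At 32032631 to 40728419 counts per sample, 3 counts correspond to 0.0747 to 0.0913 CPM, which covers counting error only. Samples were not treated as paired by replicate number. Means are given with SD over 3 samples.

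The receptors and gene lists were chosen with earlier results of these data known. Named are the 10 receptors, Zfp335, in each other list the called genes with at least 5 CPM in WT or KO (at most 4 per direction, else the gene with the highest level), the coding neighbors, the 3 genes most like Tnfrsf1b, and cell type markers. A gene of the death effector list is not reported here. Promoters come from RefSeq (GRCm38.p6), with no window for Tnfrsf26 in that table, and positions and lengths from GENCODE M21.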

Additional observations from a re-analysis of the deposited data

How the results depend on the processing

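The 14 alternatives gave the same 3 called receptors except that glmTreat against a fold of 1.5 lost Tnfrsf25, and an adjusted p below 0.05 at any fold added Tnfrsf9. Leaving out 1 sample moved Tnfrsf4 from -0.19 to 0.064, Tnfrsf18 from -0.19 to 0.035 and Tnfrsf26 from -0.19 to 0.063, the positive values arising without WT replicate 3. Calls over all genes numbered 5244 with no fold cutoff and 1686 with glmTreat. Called other receptors numbered 5 with DESeq2, with library totals alone and with at least 10 counts in every sample, 1 with glmTreat, and 2 to 7 leaving out 1 sample. Called NF-kappaB inhibitors numbered 1 with DESeq2 and with RLE scaling, 3 with no fold cutoff and 0 to 3 leaving out 1 sample. Called NF-kappaB kinases and subunits numbered 1 with library totals alone, 5 with no fold cutoff and 0 to 1 leaving out 1 sample. Called adaptors numbered 2 with no fold cutoff and 0 to 1 leaving out 1 sample, and receptors outside the superfamily 3 with no fold cutoff. Called ligands of the 10 receptors numbered 3 with at least 10 counts in every sample, which removes low genes from the test, 4 with glmTreat and 4 without KO replicate 2, where Cd70 lost its call. Other ligands numbered 3 with glmTreat and 3 to 6 leaving out 1 sample. The cause of these changes was not tested. Samples of the same replicate number correlated at 0.0405, 0.0398 and -0.0106 after removal of group means. Correlations between different numbers were not computed, so these values cannot decide whether the samples are paired. A replicate block left 3 receptors and 3190 genes called and changed no call of a gene named here among the lists. Leaving out WT replicate 3 narrowed the intervals of Tnfrsf4, Tnfrsf18 and Tnfrsf26.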

Other observations

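Costimulatory and coinhibitory receptors outside the TNF receptor superfamily were counted in the same test. Of 7 such genes 1 was called, beside 24.4% of all genes. This was Cd5, which encodes an inhibitory receptor that dampens T cell receptor signals. It was at 642 ± 15.2 (WT) and 349 ± 6.16 CPM in KO (SD, n = 3), at a log2 fold change of -0.88 (edgeR adjusted p = 5.88e-05). Cd28, the main costimulator of T cells, was at 257 ± 12.4 (WT) and 199 ± 1.83 CPM in KO (-0.37, edgeR adjusted p = 0.00334) and did not reach a fold of 1.5. Icos was at 395 ± 95.3 and 472 ± 18.2 CPM (0.26, edgeR adjusted p = 0.223, and 0.47 without WT replicate 3, edgeR adjusted p = 4.47e-06), and Ctla4 at 646 ± 238 and 487 ± 15.7 CPM (-0.41, edgeR adjusted p = 0.185). Ctla4 was at 507, 509 and 920.5 CPM in WT replicates 1 to 3, so its WT mean rests on WT replicate 3, and without that sample its log2 fold change was -0.07. Cd28, Icos and Ctla4 were named after their values were seen, Ctla4 also being among the Treg markers.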
